A study of Mus musculus with 2 samples.

Results

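Tetraspanins are small proteins that cross the membrane 4 times and organise other membrane proteins, among them integrins, immunoglobulin family proteins, immune receptors and proteases, into microdomains. Several, such as CD9, CD63 and CD81, are also used as markers of exosomes, and in leukocytes members of the family take part in adhesion, fusion, antigen presentation and receptor signalling. A subgroup called TspanC8 escorts the sheddase ADAM10 out of the endoplasmic reticulum and to the cell surface. The family was described here in 2 cultures of M/E-cells. Members were the array probes annotated to a Tspan gene with a number, to Cd9, Cd37, Cd53, Cd63, Cd81, Cd82, Cd151, Upk1a, Upk1b, Rom1 or Prph2, or to an older Tm4sf symbol of one of these, which gave 42 of 41085 probes and 29 of 27620 gene names. No probe carried the name Rom1, and Prph2 was present only under the older name Rds, outside the rule and not above background on either array, so neither was counted.

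M/E-cells are cells of mouse bone marrow that the leukaemia fusion MLL/ENL has immortalised, and both cultures had the genotype M/E-Mef2c del/-, without a functional form of the transcription factor MEF2C. The control culture was infected with the empty retroviral vector MYs-iPAC, and the other with MYs-pMef2cASR, which encodes a constitutively active Mef2c that cannot bind histone deacetylases (MEF2C-ASR). Both were puromycin-selected and grown with IL3, IL6 and GM-CSF at 10 ng/ml each and SCF at 100 ng/ml, and RNA from harvests 6, 24 and 48 h after seeding was pooled per culture. The comparison asks which transcripts differ between cells with the active factor and cells with the empty vector. The control thus lacks functional MEF2C, and no culture with normal Mef2c was among the 2 arrays.

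Each group was 1 array of 1 pooled RNA, so no difference has a replicate check, no test was run, and higher and lower describe these 2 arrays. Signals are Agilent processed intensities in arbitrary units, and a difference is MEF2C-ASR minus control in log2 after each array's 75th percentile was subtracted. Where a pair of signals is given, the control comes first and the number in parentheses is this difference. A rule of size, at least 2-fold, stands in place of a test. Spots well above background made up 60.1% in the control and 67.5% with MEF2C-ASR, and the lowest signal so flagged was 38.3 and 19.98. Probes printed several times gave a spotting error of 0.13 for a difference over all levels. It was 0.22 at mean levels below -2, 0.07 from -2 to 2, and 0.06 at 2 or above. This covers spot-to-spot error on the array only. Mef2c gave a signal of 795 in the control, which received only the empty vector, and 1969 with MEF2C-ASR (2.54-fold). The control signal thus holds no introduced transcript. The MEF2C-ASR signal does not separate endogenous from introduced transcript. All 13 haematopoietic progenitor and myeloid markers were above background on both arrays, with a summed signal of 242463 and 345311. Bright probes weigh most in such a sum, and Mpo alone gave 68289 and 143027 (2.15-fold). Mpo was the only 1 of the 13 at least 2-fold higher, and none was at least 2-fold lower. Of all genes measured on both arrays, 1.74% were higher and 1.91% lower by this rule. The median difference of the 13 was 0.27, with 11 above 0 and 2 below. Over all measured genes the median was -0.03, and 44.8% were above 0.

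Apart from Tspan8, the family as a whole differed little between the cultures, as was so for most measured genes. Of the 29 genes, 21 were measured on both arrays, 2 were above background on the MEF2C-ASR array only, and 6 were above background on neither. So 23 of 29 were above background on at least 1 array, against 68.6% of all genes on the array. Among the 21, none was at least 2-fold higher, where 1.74% of the 16570 measured genes were, and 1 (4.76%) was at least 2-fold lower, where 1.91% were, or 3.65% in either direction. At least 1.5-fold apart were 2 of the 21 (9.52%), Tspan8 and Tspan9, against 9.58% of all measured genes. The median difference was 0.01 over the 21 and -0.03 over all measured genes, and 11 of the 21 were above 0, against 44.8% of all. With spike-in scaling the family's median was -0.13 and that of all genes -0.17, and 5 of the 21 were above 0, against 24.9% of all.

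**Figure D1:**
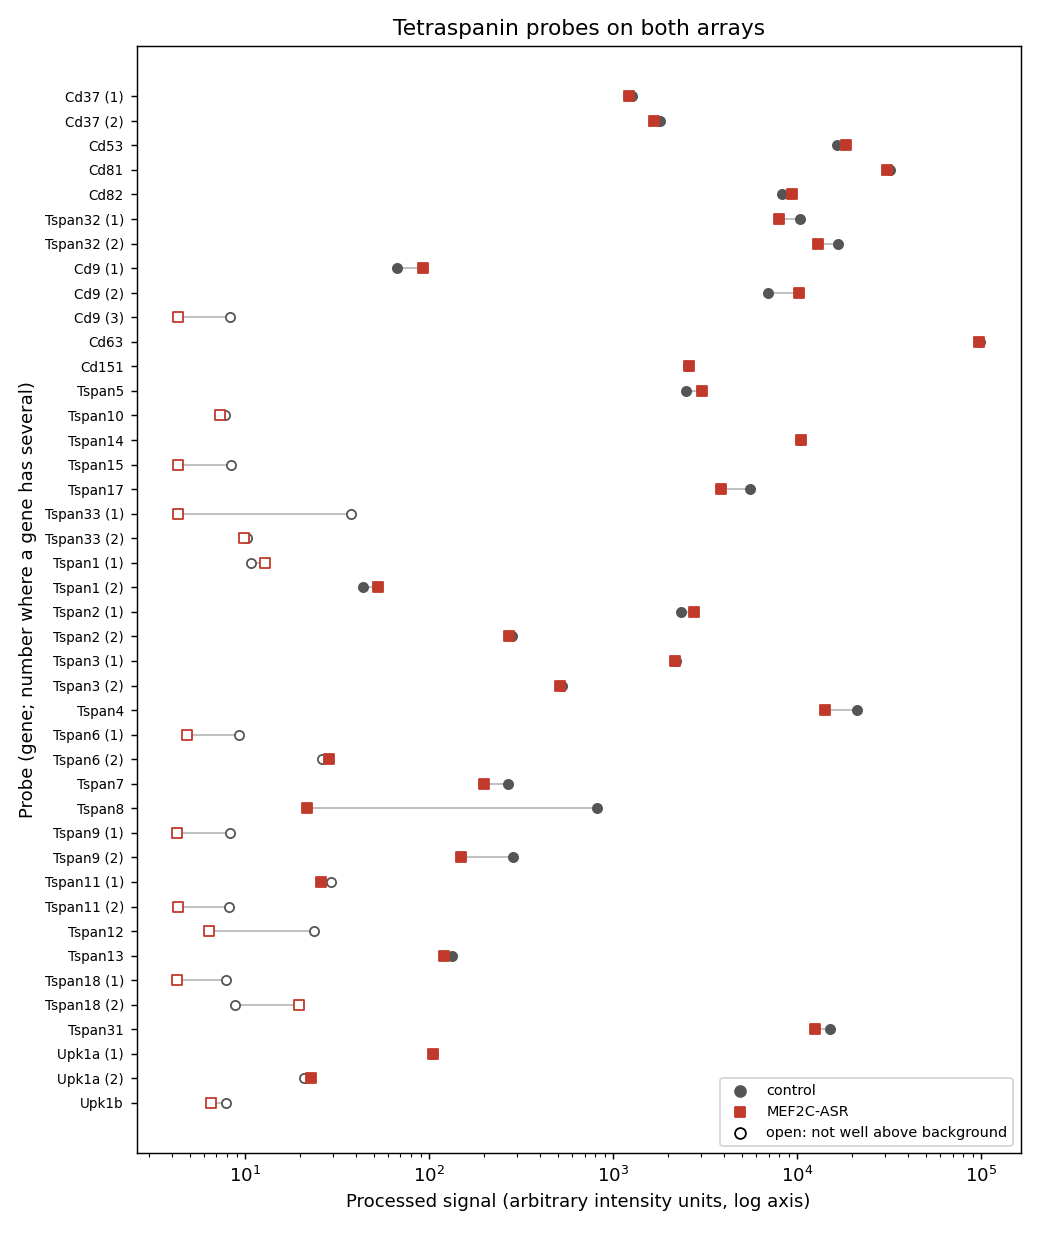
Processed signal (arbitrary intensity units, log axis) of the 42 tetraspanin probes on the control array (circles) and with MEF2C-ASR (squares), 1 array each; open symbols are probes not well above background there. Most pairs of filled symbols nearly coincide, while Tspan8 moves from 816 to 21.8; positions of different probes are not comparable with each other.

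Tspan8, whose protein associates with integrins and has been studied for its part in the migration and spread of carcinoma cells, was the member that differed most. Its probe gave a signal of 816 in the control culture and 21.8 with MEF2C-ASR. That is a 36.5-fold lower signal, a log2 difference of -5.19, and the lowest difference among the 16570 measured genes, followed by Sgsm1 at -4.35. The error that the scanner software assigns to each signal was 82.0 and 4.67. Before background subtraction the spot's mean pixel intensity was 885.5 and 67.4, against a local background of 38.5 and 37.0 and over 62 pixels on each array. The spot was thus many times brighter than its surroundings in the control and not quite double them with MEF2C-ASR. None of the 153 negative control spots on the control array reached the probe's signal, and 2 of 153 did on the MEF2C-ASR array, where it stood 1.09 times as high as the lowest signal flagged as well above background. The fold therefore rests on a value next to the detection limit of that array. After another background correction, normexp with an offset of 50 refitted without 7 spots of extreme local background, the difference was -3.28 (9.70-fold lower), and 2 genes were lower. Tspan8 was also at place 2 from the bottom when outlier spots were kept, at place 7 when probes at background were kept, and left out when only brighter genes were counted. In each setting that gave a value it was at least 9.70-fold lower with MEF2C-ASR.

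A single probe measured Tspan8. It carries the accession's positions chr10:115333751-115339111, plus strand, whose build the sources used here do not give, and these ends are 5.361 kb apart for a 60-base probe. The protein-coding genes beside Tspan8 in RefSeq that were measured did not share its difference. Ptprr, a receptor tyrosine phosphatase gene and the next protein-coding gene after Tspan8, gave 1565 and 1640 (0.08). Zfc3h1 gave 698 and 919 (0.54), and Thap2 gave 689 and 613 (-0.15). Lgr5, Taf7l2, Ptprb and Kcnmb4 were not above background on both arrays. A930009A15Rik, the next protein-coding gene before Tspan8, had no probe.

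**Figure D2:**
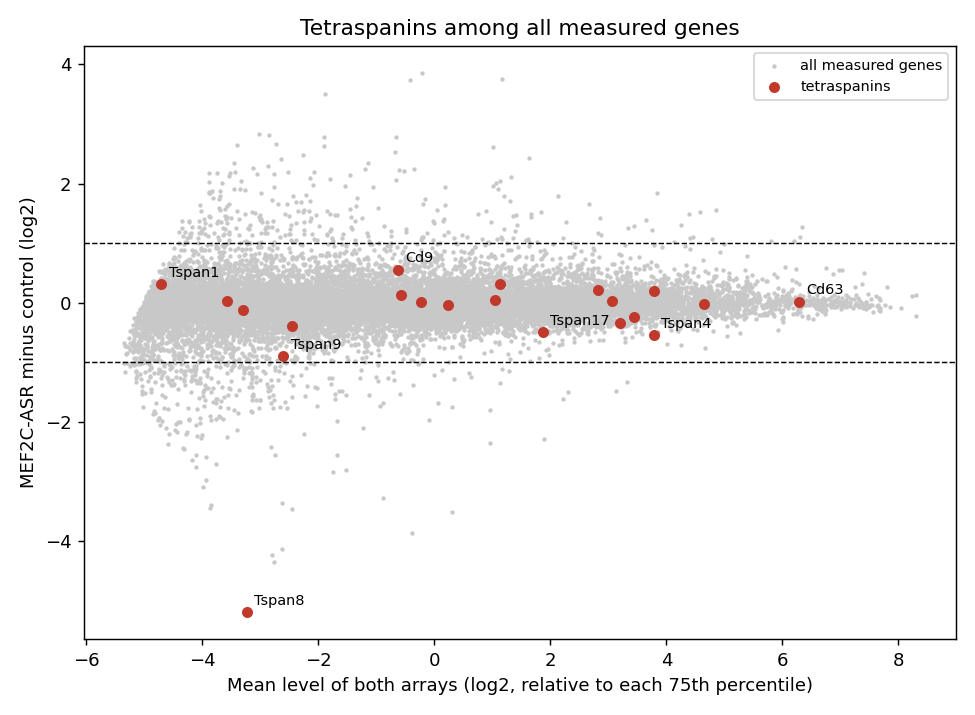
Difference (MEF2C-ASR minus control, log2) against the mean level of both arrays (log2, relative to each array's 75th percentile) for 16570 measured genes (grey) and the 21 measured tetraspanins (red); dashed lines mark 2-fold. Tspan8 at -5.19 is the lowest point, and the other 20 tetraspanins lie between -0.90 and 0.56.

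Promoters from RefSeq (GRCm38.p6), each with 250 bases before and 50 after the annotated start, were found for 27 of the 29 genes, 37 in all. The promoters of Tspan8 and Cd9 are shown because these genes had the lowest and the highest difference of the family. Tspan8 lies at chr10:115817034-115817333 on the plus strand and Cd9 at chr6:125494711-125495010 on the minus strand. Both are written 5′ to 3′ along the gene, with capitals marking the motifs searched on both strands, which are the octamer in Tspan8, and the ETS core, the GC box (at 2 places) and the E-box in Cd9; their letters are given with their shares after the sequences.
Tspan8: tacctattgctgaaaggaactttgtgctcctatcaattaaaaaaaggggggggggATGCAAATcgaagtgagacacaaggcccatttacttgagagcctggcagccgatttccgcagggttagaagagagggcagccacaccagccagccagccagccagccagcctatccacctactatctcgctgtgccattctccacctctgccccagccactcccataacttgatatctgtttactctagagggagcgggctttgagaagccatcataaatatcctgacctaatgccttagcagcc
Cd9: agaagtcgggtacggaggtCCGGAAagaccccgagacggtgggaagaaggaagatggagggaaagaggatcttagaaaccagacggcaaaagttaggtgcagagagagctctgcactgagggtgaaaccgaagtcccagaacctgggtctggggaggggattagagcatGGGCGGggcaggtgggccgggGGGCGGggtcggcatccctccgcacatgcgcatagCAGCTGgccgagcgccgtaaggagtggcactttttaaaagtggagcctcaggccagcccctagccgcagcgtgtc
The octamer ATGCAAAT began 195 bases before the Tspan8 start, and 2 member promoters held it (Tspan13 was the other), against 1.74% of 32851 promoters of this length. The MEF2 consensus was in none of the 37 member promoters and in 3.19% of all promoters. The GC box GGGCGG was in 16 of 37 (35.7% of all), the ETS core CCGGAA in 6 (14.9%), the E-box CAGCTG in 7 (16.3%) and TATAAA in 2, of Cd81 and Tspan12 (13.6%). A match is a string of letters and not a site shown to be bound, and no match covers only this window.

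Cd9, which takes part in adhesion, cell fusion and platelet biology, had the highest difference of the family, short of 2-fold. The probe for its messenger RNA (chr6:125482335-125482394, minus strand) gave 6914 in the control and 10266 with MEF2C-ASR, a difference of 0.61. A second probe, for the cDNA AK038228, lies 16.6 kb away on the same strand and gave 67.0 and 92.9, a difference of 0.51. Both probes were higher with MEF2C-ASR and their mean was 0.56, or 1.47-fold. Of all measured genes, 5.01% had a difference at least as high. The third probe, for AK080546 on the opposite strand and 35.7 kb away, was not above background on either array. With probes at background kept, which brings in that last probe, the mean was 0.07.

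The other leukocyte tetraspanins stayed within 1.26-fold. Cd63, the tetraspanin of lysosomes, granules and exosomes, gave 99125 and 98016 (0.02). Cd81, a tetraspanin of lymphocytes and exosomes, gave 32168 and 30865 (-0.02). Cd151, the partner of laminin-binding integrins, gave 2569 and 2601 (0.05). These 3 were nearly equal on both arrays, with differences below the spotting error. Cd37, a tetraspanin of mature leukocytes, was read by a pair of probes, with 1271 and 1228 at one and 1796 and 1676 at the other, a mean of -0.04. Cd53, found across leukocytes, gave 16441 and 18494 (0.21), with a background flag on its spot on at least 1 array. Cd82, first described as the metastasis suppressor KAI1, gave 8307 and 9389 (0.21). Both were slightly higher with MEF2C-ASR, by more than the spotting error. With spike-in scaling Cd53 and Cd82 were each at 0.07. That is below the spotting error of 0.13 over all levels, but above the 0.06 at their level. Cd81 was at -0.16, beyond both. Tspan32, known from haematopoietic cells as Phemx or Tssc6, gave 10348 and 8022 at one probe and 16779 and 12987 at another, lower with MEF2C-ASR by the same -0.33 at each. All 8 leukocyte members were measured and their median was 0.04.

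**Figure D3:**
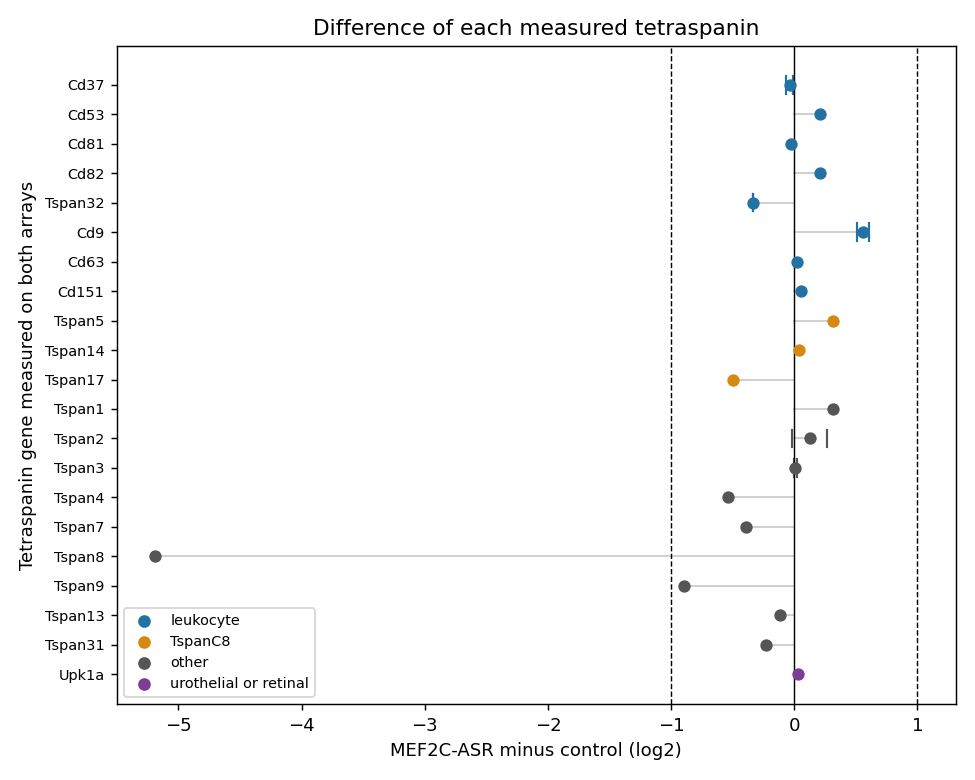
Difference (MEF2C-ASR minus control, log2) of each of the 21 measured tetraspanin genes, coloured by group; short ticks mark single probes where 2 were measured, and dashed lines mark 2-fold. Cd9 at 0.56 is the highest, and Tspan4 (-0.54), Tspan9 (-0.90) and Tspan8 (-5.19) are the lowest.

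Of the 6 TspanC8 genes, Tspan5, Tspan14 and Tspan17 were measured, and Tspan10, Tspan15 and Tspan33 were above background on neither array. Tspan5 gave 2503 and 3039 (0.32). Tspan14 gave 10439 and 10446 (0.04). Tspan17 gave 5542 and 3840 (-0.49), 1.41-fold lower with MEF2C-ASR. So among the 3 measured partners of ADAM10, Tspan5 was higher and Tspan17 lower, each by less than 1.5-fold, and Tspan14 lay near 0. Adam10 itself gave 285 and 360 (0.37).

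Among the remaining numbered Tspan genes 9 of 13 were measured, with a median of -0.23. Tspan9, known from platelets and megakaryocytes, gave 286 and 150 at its measured probe, a difference of -0.90 or 1.86-fold lower. Of all measured genes, 2.45% had a difference at least as low. Tspan9 came closest to the 2-fold mark without passing it, and its other probe was not above background on either array. With spike-in scaling its difference was -1.03. Of 7 megakaryocyte and platelet markers 5 were measured, with 1 above 0, against 44.8% of all measured genes, and 4 below. The 1 above 0, Pf4 (242 and 556, 1.24), was at least 2-fold higher, as were 1.74% of all measured genes. The summed signal of all 7 was 827 and 1086. The part of these markers in the value of Tspan9 was not tested. Tspan4, a marker of migrasomes, gave 21096 and 14163 (-0.54, 1.45-fold lower), with a background flag on its spot on at least 1 array. Tspan7, known from the brain, gave 268 and 198 (-0.40). Tspan31, a gene amplified in sarcomas, gave 15061 and 12505 (-0.23). Tspan13 gave 134 and 120 (-0.12). All of these were lower with MEF2C-ASR. Tspan13 was within the spotting error at its level, though not with spike-in scaling (-0.26).

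Of the others in that group, Tspan1 gave 43.8 and 53.0 (0.31), the control signal close to that array's limit of 38.3. Tspan2, expressed in oligodendrocytes, gave 2347 and 2749 at one probe (0.26) but 282 and 272 at the other (-0.01). The Tspan2 probes thus did not share a sign. Tspan3 gave 2191 and 2168 at one probe and 531 and 517 at the other, a mean of 0.01. Tspan6 was above background on the MEF2C-ASR array only, with 26.3 and 28.5, and so was Tspan11, with 29.3 and 25.9. The control array's limit was higher than either pair of signals, so no fold is given. Tspan12, a co-receptor for Norrin in retinal vessels, and Tspan18 were above background on neither array. Upk1a, a subunit of the bladder's urothelial plaques, gave 105.5 and 105.1 (0.03), and Upk1b was above background on neither array. Of 4 urothelial markers, 1 was above background in the control and 2 with MEF2C-ASR, and Upk3a and Upk3b were on neither. The measured one was Krt5, a keratin of basal epithelial cells, which was 2.03-fold higher with MEF2C-ASR (95.5 and 189, 1.02); its part in the Upk1a value was not tested.

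Some tetraspanin genes are neighbours in the genome, and the measured pairs did not have the same difference. Tspan32 and Cd81 adjoin on chromosome 7 and differed by -0.33 and -0.02. On the same chromosome Cd151 and Tspan4, with 1 protein-coding gene between them, differed by 0.05 and -0.54. In the 5 genes with 2 measured probes, the probes were between 0.0023 apart for Tspan32 and 0.28 apart for Tspan2.

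Beside the family, 5 lists were described, of genes that work with tetraspanins and, as the last, of other four-pass families. Of the ADAM10 list, ADAM10, ADAM17 and proteins they shed, 9 of 10 were measured, 1 was at least 2-fold higher and none lower, where 1.74% and 1.91% of all measured genes were, and the median was 0.37. The gene past 2-fold was Cdh1, E-cadherin, with 68.5 and 179 (1.43), a dim probe whose difference was 0.80 with the refitted normexp correction. Of 25 membrane partners 20 were measured, 1 was at least 2-fold higher and none lower, against the same 1.74% and 1.91%, with a median of 0.22. It was Clec7a, the beta-glucan receptor Dectin-1 that associates with CD37 and CD63, with 959 and 2059 (1.14, and just under 1 with spike-in scaling). Igsf8, an immunoglobulin family partner of CD9 and CD81 that was picked out after its value was seen, gave 2374 and 1232 (-0.91). It lay below 0 while Cd9 lay above it and Cd81 near it.

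The other 3 lists held no gene past 2-fold. Of 14 genes for endosome and exosome sorting 13 were measured, with a median of 0.11, or -0.03 with spike-in scaling. Named by their mean signal, which does not rank transcripts, were Sdcbp, the adaptor syntenin, with 48603 and 55077 (0.22), and Lamp1, a lysosomal membrane protein, with 44627 and 47995 (0.14). All 9 genes of palmitoylation, the lipid modification that holds tetraspanin microdomains together, were measured, with a median of -0.05, and among them the thioesterase gene Lypla2 gave 47566 and 57625 (0.31) and Abhd17a 8510 and 8656 (0.06). Of 18 genes of other four-pass families 9 were measured, with a median of -0.02, and among them were Ms4a3, a gene of granulocyte and monocyte progenitors, with 80671 and 102110 (0.38), and Pmp22, the peripheral myelin protein, with 19726 and 35907 (0.90). The medians of the first 3 lists lay above the -0.03 of all measured genes and above the 0.01 of the tetraspanins, which is a description of these 2 arrays. With spike-in scaling the ADAM10 list's median was 0.23 and that of the membrane partners 0.08, against -0.17 for all genes. With all probes kept the ADAM10 list's median was 0.18.

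**Figure D4:**
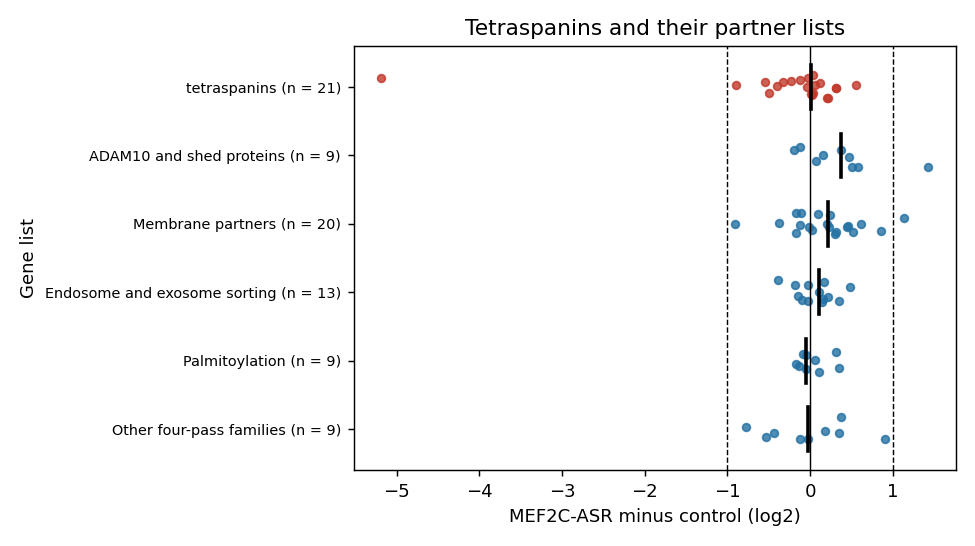
Difference (MEF2C-ASR minus control, log2) of the measured genes of the tetraspanin family and of 5 other lists. The last list holds other four-pass families and not partners. Points are genes, thick bars are medians, dashed lines mark 2-fold, and n is the number of measured genes. Medians run from -0.05 for palmitoylation to 0.37 for ADAM10 and shed proteins, and Tspan8 stands alone at -5.19.

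Markers of other cell types were lower in sum with MEF2C-ASR in some lists and higher in others. Summed signals were 1113 and 975 for 6 mast cell and basophil markers, 357 and 437 for 5 B cell markers, and 1401 and 1119 for 5 T cell markers. They were 449 and 391 for the 4 erythroid markers with a probe, and 881 and 788 for 6 stromal and endothelial markers. They were 195 and 156 for 4 photoreceptor, and 138 and 231 for 4 urothelial markers. Another listed erythroid marker, Hbb-b1, had no probe. Past 2-fold in these lists were Cd79a, a B cell receptor subunit, with 55.3 and 119 (1.15), Krt5, and Pdgfrb, a receptor of stromal cells, with 83.8 and 23.4 (-1.81). The MEF2C-ASR signal of Pdgfrb was close to that array's limit of 19.98. Other markers measured on both arrays included Cd3e with 190 and 316 (0.77), Lck with 989 and 586 (-0.72), the basophil protease gene Mcpt8 with 697 and 604 (-0.17), and Pecam1 with 435 and 365 (-0.22). Cd3g, Cdh5 and Cpa3 were among those at background on both. In bulk RNA, fewer cells of a type and less RNA per cell cannot be told apart. The part of cell composition in the tetraspanin differences was not tested.

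**Figure D5:**
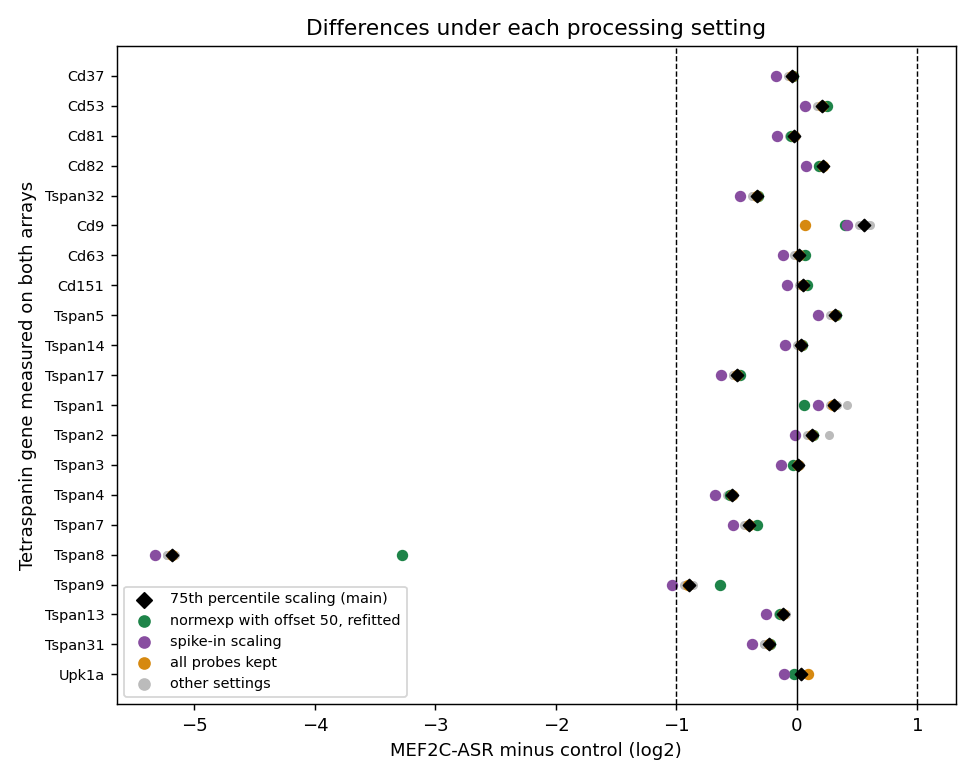
Difference (MEF2C-ASR minus control, log2) of each measured tetraspanin under the main processing (black) and 13 alternatives (normexp refitted green, spike-in scaling purple, all probes kept orange, others grey). Tspan8 runs from -5.33 to -3.28, and no other gene except Tspan9 crosses a dashed 2-fold line.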

How the data were processed

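The authors' deposited files hold linear intensity values per spot, made with Feature Extraction 9.5.1.1, per the file headers (background subtraction with spatial detrending, surrogates for dim signals, no normalization between arrays). Here, log2 of the processed signal minus each array's 75th percentile over 43379 non-control spots was used. Outlier spots (202 and 201) were left out and no spot was saturated. A probe was measured where well above background on both arrays, and measured probes of a gene were averaged. A gene counted as 2-fold apart only if these shared a sign. Members, lists and the naming rule (members above background, up to 4 list genes past 2-fold or the 2 of highest signal, Mef2c, Hprt and Ptprc) were chosen with earlier results of these data known. Hprt differed by 0.02 and Ptprc by 0.71. Names and neighbours came from RefSeq GRCm38.p6. With 1 array per group, the number of arrays limits precision. Steps were tested on simulated data, with changes planted only in genes of mean level above -2 and all past 2-fold. That test did not cover dim probes such as that of Tspan8, or differences near 2-fold. Python 3.11.15, pandas 2.3.3 and limma 3.58.1 were used.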

Additional observations from a re-analysis of the deposited data

How the results depend on the processing

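Over 13 alternatives, 132 of 267 member values equalled the main value, and 5 alternatives (series matrix values, members by accession, outlier spots kept, background-outlier spots left out, brighter genes only) moved none of those they kept. Of the 135 values that moved, 1 crossed 2-fold, Tspan9 with spike-in scaling, and 15 of 21 genes kept their sign; the other 6 (Cd63, Cd151, Tspan2, Tspan3, Tspan14 and Upk1a) lay close to 0. The number of members at least 2-fold lower was 2 with spike-in scaling, which moved the median of all genes to -0.17 and that of the family to -0.13, 3 with all probes kept (Tspan12 and Tspan33 joined, both at background on both arrays), and 0 with brighter genes only, which leaves out Tspan8 by its mean level. A fourteenth alternative, normexp with offset 50 fitted on all spots, gave 6 members lower and 39.5% of all genes lower, with Tspan1 at -2.54, Upk1a at -2.01 and Cdh1 at -1.495; 7 spots with a local background over 100 on the control array set its fitted background mean at -905, against -16.4 without them, so the refit chosen after seeing the data is used in the text. Refitted, 158 genes were higher and 127 lower. No paired analysis was possible because each group is 1 array. Probes near background limit the values of Tspan8, Tspan1, Cdh1 and Pdgfrb, and no alternative can supply the missing replicates.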
